A study of Mus musculus with 4 samples.

Results

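The 10 genes described here encode proteins of the stereocilia, the actin-filled rods that form the hair bundle of inner ear hair cells: the actin crosslinkers and core proteins Espn, Espnl, Fscn2, Pls1 and Xirp2, the tip proteins Eps8 and Eps8l2, the rootlet protein Triobp, and the glutaredoxin-like proteins Grxcr1 and Grxcr2. They were taken by name from the deposited expression files after gene identifiers were matched to symbols, and are 10 of 37239 genes listed. The choice by name uses no threshold on measured values, but it was made with earlier results of these data known. RNA had been prepared from whole cochleae of mice at postnatal day 8, from Ikzf2+/+ (wild-type) animals and from littermates homozygous for the cello allele (Ikzf2cello/cello), with 2 libraries per genotype called biological duplicates. Neither genotype received a treatment, and no transgene or Cre driver is named. The labels do not say how many animals gave RNA to a library, so p-values measure the spread between these 4 libraries. Ikzf2 encodes helios, an Ikaros family transcription factor found in outer hair cells.

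A stereocilium is a bundle of parallel actin filaments held together by crosslinking proteins, of which espin, plastin and fascin are the best known. Its height is set by proteins at the tip, where the filaments elongate, and it is anchored in the cell by a rootlet of tightly packed filaments at its tapered base. During the first postnatal weeks of the mouse the bundles of cochlear hair cells thicken and reach their final staircase shape, and mutations of many of these genes cause deafness. Several are not hair cell specific: plastin 1 and EPS8 are also found in microvilli of other epithelia, fascin 2 in photoreceptors, TRIOBP isoforms in many tissues, and XIRP2 in striated muscle.

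Values are CPM, the reads of a gene scaled to 1000000 counted alignments of its library. The libraries held 42152616 to 49719984 of these, with 70.0% to 72.8% in genes. The test covered the 14721 genes that reached 1 CPM in 2 or more libraries, and all 10 stereocilia genes were among them. Every gene of the hair cell, outer hair cell, inner hair cell, supporting cell and stria vascularis marker lists had reads in every library. Bone markers stood apart in cello replicate 1, with a summed 3233 CPM against 1198 CPM in cello replicate 2 and 1548 and 1705 CPM in the wild-type libraries. Ikzf2 itself measured 22.9 and 18.5 CPM in the wild-type libraries, against 17.7 and 16.9 CPM in the cello libraries, which does not check the genotype labels, because cello is a point mutation.

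All 10 genes had a lower mean in cello than in wild-type cochleae, and none passed the test over all genes. Their median log2 fold change, cello minus wild-type on the log2(CPM + 0.5) scale that understates the change of low genes, was -0.40, against -0.032 over all genes tested, of which 56.6% lay below 0. The espin-like gene Espnl (-0.76) and the filament-binding gene Xirp2 (-0.83) had the lowest values, and Grxcr2 (-0.059) had the value closest to 0. In 7 genes both cello libraries lay below both wild-type libraries, as they did in 28.7% of all genes tested. At an adjusted p of 0.05 limma called 0 of the 10, and 0% of all genes tested in either direction, while 1603 genes (10.9%) had an unadjusted p under 0.05. That unadjusted count held 6 of the 10 stereocilia genes, all lower in cello, as were 6.47% of all genes tested. Of the other tools edgeR called 0 genes (0%) and DESeq2 called 195 (1.32%), among them 1 of the 10. In whole-cochlea RNA, fewer hair cells, less RNA per hair cell and a changed share of other tissue cannot be told apart.

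**Figure D1:**
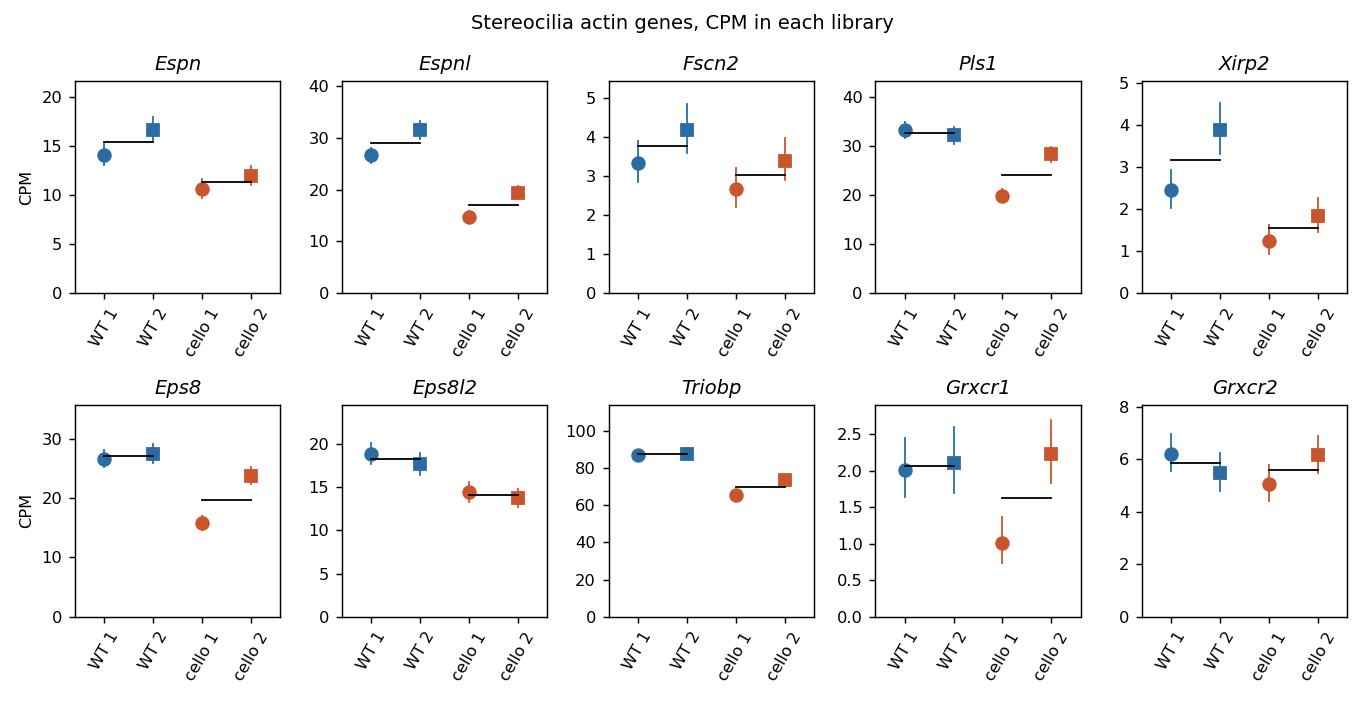
CPM of each gene (vertical axes, each starting at 0) in the 4 libraries, wild-type in blue and cello in orange, with circles for replicate 1 and squares for replicate 2. Black lines are group means of 2 libraries and vertical bars are 95% Poisson intervals, which cover counting error only. The cello points lie below the wild-type points in 7 panels, and the groups overlap for Fscn2, Grxcr1 and Grxcr2.

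The 2 espin genes encode crosslinkers that bundle actin filaments. Espnl encodes espin-like, a relative of espin that is found in stereocilia. Espnl (ENSMUSG00000049515, GRCm38 chromosome 1, 91322075 to 91348306, plus strand) measured 26.6 and 31.6 CPM in the wild-type libraries, against 14.8 and 19.4 CPM in the cello libraries. Both cello libraries were well below both wild-type libraries, with means of 29.1 ± 3.48 and 17.1 ± 3.29 CPM (SD, n = 2), a ratio of 1.70. Its log2 fold change was -0.76 (SE 0.17, 95% interval -1.18 to -0.33), and limma with Benjamini-Hochberg adjustment gave an adjusted p of 0.419. Espnl was the one stereocilia gene called by DESeq2 (adjusted p = 0.032), which called 0.543% of all genes tested as lower, and edgeR gave it an adjusted p of 0.451. In simulated data 44 of 205 DESeq2 calls were false, a share that need not hold for these libraries. The adjusted p of Espnl ranged from 0.032 to 0.931 over all settings tried.

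Espn encodes espin, whose loss shortens and thins stereocilia. Espn (ENSMUSG00000028943, chromosome 4, 152120331 to 152152371, minus strand) measured 14.1 and 16.7 CPM in the wild-type libraries, against 10.6 and 12.0 CPM in the cello libraries. The groups did not overlap, and the higher cello library was 2.17 CPM below the lower wild-type library. The log2 fold change was -0.43 (SE 0.14, 95% interval -0.78 to -0.076). RefSeq lists 3 starts for Espn, from which isoforms of different length arise, and values per gene do not tell them apart.

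Pls1 encodes plastin 1, the most abundant plastin of mature stereocilia. Pls1 (ENSMUSG00000049493, chromosome 9, 95752642 to 95845311, minus strand) measured 33.3 and 32.2 CPM in the wild-type libraries, against 19.9 and 28.3 CPM in the cello libraries. The wild-type libraries were close together, whereas the cello libraries were 0.50 apart on the log2 scale, more than the difference between the genotypes (-0.46, SE 0.18). The value was -0.21 without cello replicate 1 and -0.71 without cello replicate 2.

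Fscn2 encodes fascin 2, a crosslinker that maintains stereocilia length. Fscn2 (ENSMUSG00000025380, chromosome 11, 120361534 to 120368168, plus strand) measured 3.34 and 4.18 CPM in the wild-type libraries, against 2.66 and 3.39 CPM in the cello libraries. The groups overlapped, since cello replicate 2 lay above wild-type replicate 1, and the 95% interval of the log2 fold change ran from -0.80 to 0.26. Between 113 and 176 reads stood behind each value, and a log2 fold change like that of Espn lies within this interval, as does 0.

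Xirp2 encodes a large actin-binding repeat protein that is needed to maintain stereocilia and is also a component of striated muscle. Xirp2 (ENSMUSG00000027022, chromosome 2, 67446002 to 67526614, plus strand) measured 2.45 and 3.89 CPM in the wild-type libraries, against 1.25 and 1.83 CPM in the cello libraries, from 53 to 164 reads per library. Both cello libraries were below both wild-type libraries, and wild-type replicate 2 was the highest. The log2 fold change was -0.83 (SE 0.29, 95% interval -1.56 to -0.11) and -0.55 without wild-type replicate 2. Wild-type replicate 2 also held the most RNA of skeletal muscle genes, with a summed 47.6 CPM over 17 genes against 13.5 CPM in wild-type replicate 1 and 17.9 and 15.1 CPM in the cello libraries. The tested members of this list did not run one way, with 5 of 8 below 0 and 3 above. Their median log2 fold change was -0.20. The filter left out the other members, so this split and median do not cover the whole list. Of those left out, all but Tnnc2 had a lower mean in cello and their highest value in wild-type replicate 2. Acta1, for example, measured 0.664 and 8.64 CPM in the wild-type libraries, against 0.118 and 0.337 CPM in the cello libraries. The myosin light chain gene Myl1 measured 1.43 and 3.46 CPM in the wild-type libraries, against 0.212 and 0.147 CPM in the cello libraries. Myl1 passed the filter only through the wild-type libraries, and Xirp1, also in this list, only through the cello libraries. The nebulin gene Neb measured 1.49 and 2.42 CPM in the wild-type libraries, against 4.95 and 2.74 CPM in the cello libraries. Ckm measured 0.0402 and 1.38 CPM in the wild-type libraries, against 0.0236 and 0 CPM in the cello libraries. Tnnc2 was at 0 in wild-type replicate 2 and cello replicate 1. Acta1, Ckm and Tnnc2 were not tested and were named after their values were seen. The part of muscle RNA in the Xirp2 difference was not tested.

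The tip proteins EPS8 and EPS8L2 bind and cap actin filaments, and mice that lack either have stereocilia of reduced height. Eps8 (ENSMUSG00000015766, chromosome 6, 137477245 to 137654876, minus strand) measured 26.6 and 27.5 CPM in the wild-type libraries, against 15.8 and 23.7 CPM in the cello libraries. Both cello libraries were lower, but their gap of 0.57 on the log2 scale exceeded the log2 fold change of -0.47 (SE 0.20, 95% interval -0.98 to 0.036). The log2 fold change was -0.18 without cello replicate 1 and -0.76 without cello replicate 2.

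Eps8l2 (ENSMUSG00000025504, chromosome 7, 141338880 to 141363020, plus strand) measured 18.9 and 17.7 CPM in the wild-type libraries, against 14.4 and 13.7 CPM in the cello libraries. This was the only one of the 10 genes in which cello replicate 2 was the lowest library, and replicates of a genotype were at most 0.091 apart on the log2 scale. The log2 fold change was -0.37 (SE 0.11, 95% interval -0.64 to -0.098), and it lay between -0.41 and -0.32 when any single library was left out. A noncoding gene, B230206H07Rik (chromosome 7, 141359141 to 141365110, minus strand), runs antisense over the last exons of Eps8l2 and shares 1729 exonic bases with it, 32.2% of those of Eps8l2. It measured 2.47 and 2.99 CPM in the wild-type libraries, against 9.89 and 7.56 CPM in the cello libraries, a log2 fold change of 1.51 (SE 0.20, limma adjusted p = 0.419), the reverse of the direction in Eps8l2. It was named after its values were seen. Whether the counting used strand is not given in the sources used here, so reads in the shared bases cannot be assigned to one of these 2 genes.

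Triobp encodes the actin-bundling protein of the rootlet, and also isoforms used outside the ear. Triobp (ENSMUSG00000033088, chromosome 15, 78947724 to 79005869, plus strand) measured 87.1 and 87.8 CPM in the wild-type libraries, against 65.4 and 73.9 CPM in the cello libraries. With 2778 to 4331 reads per library it was the gene with the most reads of the 10 and had the smallest standard error. The means were 87.5 ± 0.506 and 69.7 ± 5.97 CPM (SD, n = 2), a ratio of 1.26, and the log2 fold change was -0.33 (SE 0.089, 95% interval -0.55 to -0.10). Values per gene do not separate the rootlet isoforms from the others.

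The proteins GRXCR1 and GRXCR2 carry a glutaredoxin-like domain, and mice that lack either have malformed bundles. Grxcr1 (ENSMUSG00000068082, chromosome 5, 68031835 to 68166398, plus strand) measured 2.01 and 2.11 CPM in the wild-type libraries, against 1.01 and 2.23 CPM in the cello libraries. The lowest and the highest library were both cello. They came from 43 and 106 reads, with 95% Poisson intervals of 0.733 to 1.36 and 1.83 to 2.70 CPM that do not meet, so the 2 cello libraries differed by more than counting error. The log2 fold change was -0.33 (SE 0.33), and 0.094 without cello replicate 1.

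Grxcr2 (ENSMUSG00000073574, chromosome 18, 41985323 to 41999049, minus strand) measured 6.21 and 5.48 CPM in the wild-type libraries, against 5.06 and 6.15 CPM in the cello libraries. The groups overlapped almost fully, and the 95% interval of the log2 fold change (-0.059) ran from -0.49 to 0.37. It turned positive without cello replicate 1 (0.070) and without wild-type replicate 1 (0.025).

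**Figure D2:**
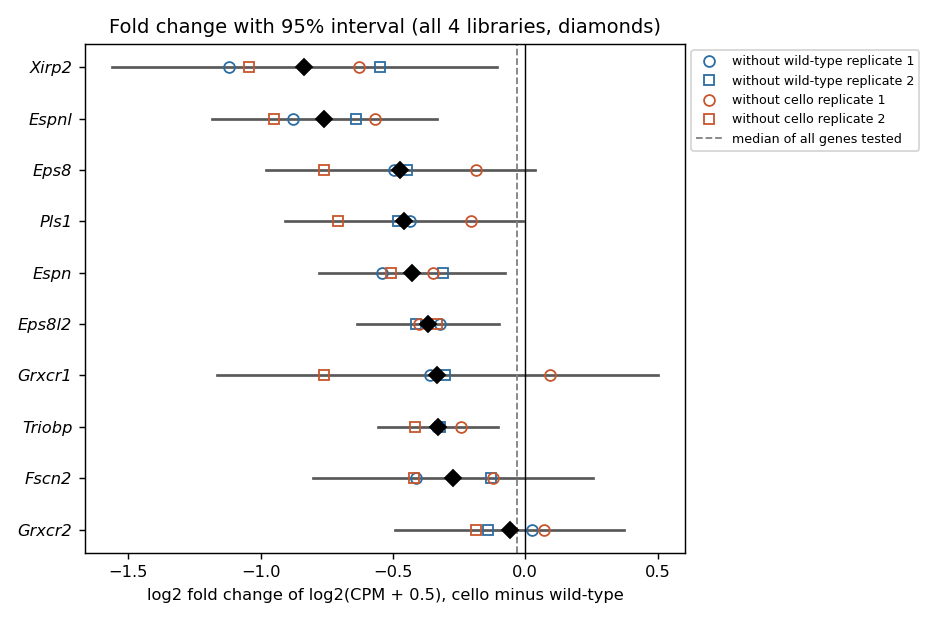
Log2 fold change of each gene (horizontal axis, cello minus wild-type, on log2(CPM + 0.5)) from all 4 libraries (diamonds) with its 95% interval from limma (lines), and the value after leaving out each library (open symbols). The interval lies below 0 for 6 genes, and the open symbols cross 0 for Grxcr1 and Grxcr2.

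The libraries of 1 genotype were not alike for these genes. Cello replicate 1 was the lowest library for 9 of the 10 genes, as it was for 35.9% of all genes tested, so cello replicate 2 necessarily lay above it in those 9. The gap between the cello libraries was larger than the difference between the genotypes for 5 genes, namely Pls1, Eps8, Fscn2, Grxcr1 and Grxcr2. On the log2 scale, centred on the mean of the 4 libraries, the mean level of the 10 genes was 0.16 and 0.27 in wild-type, against -0.39 and -0.038 in cello. Without cello replicate 1 the median log2 fold change of the 10 genes was -0.22, with 8 of them below 0, and without cello replicate 2 it was -0.61.

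Corrected for length, the genes spanned a wide range. In wild-type, Pls1 was highest at 8.42 CPM per kilobase of merged exons, followed by Triobp (7.11), Espnl (5.35), Eps8l2 (3.40), Grxcr2 (2.93) and Eps8 (2.19). Then came Grxcr1 (1.92), Espn (1.86) and Fscn2 (1.78), whose wild-type ranges overlapped, so that their order is not set by these libraries. Xirp2 was the lowest at 0.265 CPM per kilobase. In cello the first 3 ranks and the last were held by the same genes, at 6.19 for Pls1, 5.66 for Triobp, 3.14 for Espnl and 0.129 for Xirp2. The cello ranges overlapped for Pls1 and Triobp, for Espnl and Grxcr2, for Grxcr2 and Eps8l2, and along the run from Eps8 through Grxcr1 and Fscn2 to Espn. Merged exons count every annotated isoform (12.4 kb for Eps8 and 1.07 kb for Grxcr1), so a gene whose long exons are rarely used would be placed too low.

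**Figure D3:**
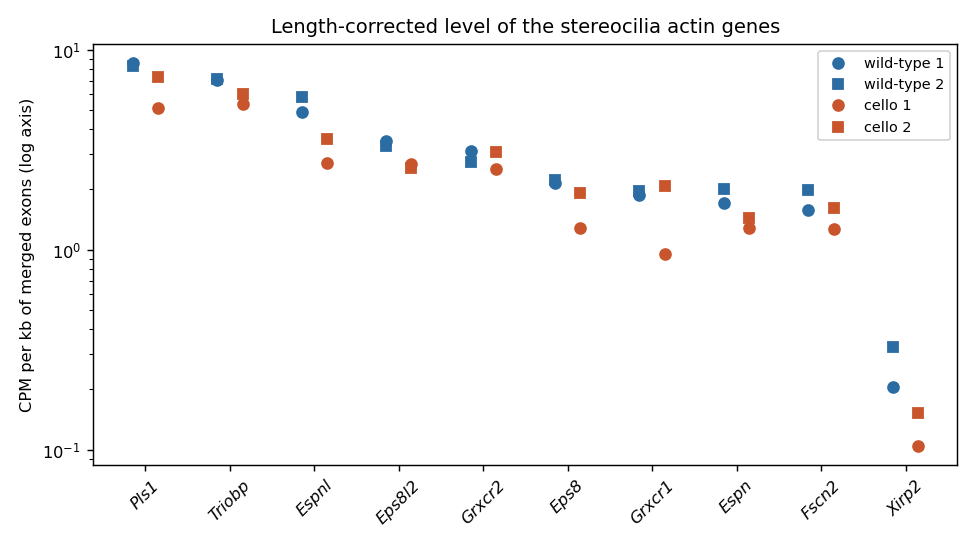
CPM per kilobase of merged exon length (vertical log axis) for each gene in each library, wild-type in blue and cello in orange, ordered by the wild-type mean. Pls1 and Triobp are at the top in both genotypes, and Xirp2 lies well below the others at 0.265 CPM per kilobase in wild-type.

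Promoters are shown for the 4 genes with 1 RefSeq start each whose groups did not overlap, to let their sequences be compared. Each is the stretch of 250 bases before the start, 5′ to 3′ on the strand of the gene, from RefSeq on GRCm38.p6, and the capitals mark matches to GGGAA, the core bound by Ikaros family zinc fingers (TTCCC where it lies on the other strand). In Xirp2 they mark CTAAAAATAG, a match to the motif of MEF2, a transcription factor family of muscle. Both motifs were searched on both strands, they share no bases in these stretches, and the second was chosen after the sequence was seen. The stretches are chr1:91321825-91322074 (plus strand), chr7:141338752-141339001 (plus), chr9:95845280-95845529 (minus) and chr2:67445752-67446001 (plus).
Espnl: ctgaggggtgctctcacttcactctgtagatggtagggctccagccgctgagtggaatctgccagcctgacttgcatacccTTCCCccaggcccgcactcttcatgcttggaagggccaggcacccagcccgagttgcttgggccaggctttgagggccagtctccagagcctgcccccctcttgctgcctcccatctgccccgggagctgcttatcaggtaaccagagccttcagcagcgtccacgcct
Eps8l2: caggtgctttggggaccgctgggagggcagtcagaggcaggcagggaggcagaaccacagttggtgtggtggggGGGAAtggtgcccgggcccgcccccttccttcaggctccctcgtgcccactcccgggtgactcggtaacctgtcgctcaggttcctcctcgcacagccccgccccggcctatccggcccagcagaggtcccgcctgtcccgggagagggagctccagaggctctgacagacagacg
Pls1: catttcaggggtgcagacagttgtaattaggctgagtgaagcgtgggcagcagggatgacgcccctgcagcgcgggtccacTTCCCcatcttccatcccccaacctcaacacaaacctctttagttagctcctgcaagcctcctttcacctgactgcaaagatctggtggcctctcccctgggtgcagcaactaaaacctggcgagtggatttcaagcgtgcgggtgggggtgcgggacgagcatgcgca
Xirp2: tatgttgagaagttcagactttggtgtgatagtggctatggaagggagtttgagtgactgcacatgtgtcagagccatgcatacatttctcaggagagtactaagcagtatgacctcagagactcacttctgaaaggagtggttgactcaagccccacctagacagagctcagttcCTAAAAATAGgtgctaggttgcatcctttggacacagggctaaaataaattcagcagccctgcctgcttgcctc

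A GGGAA match was present before 5 of the 11 RefSeq starts found for 8 of the 10 genes, and before 56.2% of 32851 starts of all genes. Espnl, Eps8l2 and Pls1 each held 1 match, as did 1 of 3 starts of Espn and 1 of 2 starts of Triobp. Fscn2, Grxcr1 and Xirp2 held none in this window. CTAAAAATAG or its reverse complement CTATTTTTAG was found before the start of Xirp2, beginning 74 bases upstream, before no other start of these genes, and before 34 starts of all genes (0.103%). This string was copied from the Xirp2 stretch, so its match there was fixed in advance. The share is that of the exact string, and other forms of the MEF2 motif were not counted. A match is a run of letters, and binding was not measured in these libraries.

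A list of 33 other genes with proteins placed in stereocilia was also followed. It includes Fscn1, Pls3 and Lcp1, which are described below as paralogs and are also expressed in other cells. Such genes add RNA of other cells to whole-cochlea values, so the list does not measure the stereocilium alone. The median log2 fold change of the 33 genes was -0.15, nearer to the median of all genes tested than that of the 10, with 25 below 0 and 8 above. Limma called 0 of them, 18 were lower in both cello libraries than in both wild-type libraries (28.7% of all genes tested) and 4 were higher (16.9% of all genes tested). Among those with the smallest unadjusted p, Ptprq, a receptor-type phosphatase of the connectors between stereocilia shafts, measured 33.3 and 34.1 CPM in the wild-type libraries, against 25.4 and 25.8 CPM in the cello libraries (-0.39, SE 0.083). Actg1, one of the 2 actins that fill stereocilia, measured 102.4 and 104.0 CPM in the wild-type libraries, against 85.8 and 80.3 CPM in the cello libraries (-0.31, SE 0.077). Slc9a3r1, a scaffold that links membrane proteins to ezrin, had a log2 fold change of -0.36 and Twf2, the actin-binding twinfilin 2, one of -0.29. Above 0 were the formin gene Diaph3 (0.55), Fchsd1 (0.34), the capping protein gene Capza1 (0.32) and Fchsd2 (0.14), and none of these passed.

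EPS8 is placed at the stereocilia tip together with whirlin and with GPSM2 and its G protein. Whrn, the scaffold whirlin, had a log2 fold change of 0.0016 (95% interval -0.42 to 0.42), Gpsm2 one of -0.016 (-0.31 to 0.28) and Gnai3 one of -0.025 (-0.25 to 0.20). Baiap2l2, a membrane-bending protein of the tip, had a log2 fold change of -0.36 (-0.83 to 0.11), with both cello libraries below both wild-type libraries. These 4 genes were singled out after their values were seen, and their differences from Eps8 were not tested.

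Close relatives of the 10 genes were also measured. Xirp1, the paralog of Xirp2 and like it a gene of striated muscle, measured 0.302 and 0.546 CPM in the wild-type libraries, against 1.25 and 1.14 CPM in the cello libraries. Its log2 fold change of 0.89 (SE 0.26, limma adjusted p = 0.429) lay on the other side of 0 from that of Xirp2, at 15 to 54 reads per library. Xirp1 reached 1 CPM in the cello libraries only, so it passed the filter only through the group where it was high. Pls3, the plastin of nonspecialised cells, had a value of 0.11 and Lcp1, the plastin of blood cells, one of -0.011, with intervals that hold 0. Fscn1, the broadly expressed fascin, stood at -0.13 and Eps8l1 at -0.23, and neither passed. Eps8l3 and Fscn3 were under 1 CPM in all 4 libraries and were not tested.

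Marker lists of hair cells and of the cells around them had unlike medians, and limma called 0 genes of any of these lists. The outer hair cell list had all 10 genes below 0 and a median of -0.51, with a summed level of 366 and 363 CPM in the wild-type libraries against 210.1 and 199 CPM in the cello libraries. The inner hair cell list had 4 of 7 below 0 and a median of -0.12, with 289 and 307 CPM in wild-type against 309.7 and 280.2 CPM in cello. The general hair cell list had 8 of 11 tested genes below 0, 7 of them without overlap (28.7% of all genes tested), and a median of -0.55. The hair cell transcription factor gene Pou4f3 measured 27.2 and 27.8 CPM in the wild-type libraries, against 14.5 and 15.3 CPM in the cello libraries. The transduction complex genes Tmc1 and Cib2 had log2 fold changes of -0.80 (SE 0.11) and -0.55 (SE 0.12). In the same list, 3 genes lay above 0, among them Calb2 (1.24) and Pvalb (0.88), which neurons of the ear also express and which were named after their values were seen. Both were higher without overlap, as were 16.9% of all genes tested. The third was Myo7a, which measured 17.5 and 16.0 CPM in the wild-type libraries, against 21.0 and 14.2 CPM in the cello libraries, and Myo6 had a log2 fold change of -0.062 (95% interval -0.28 to 0.15). The general epithelium list had all 20 genes below 0, 19 of them without overlap (28.7% of all genes tested), and a median of -0.40, equal to that of the 10 stereocilia genes at 2 decimals. Its summed level was 1294 and 1390.1 CPM in wild-type against 1013 and 1064 CPM in cello. Stria vascularis genes had 9 of 9 below 0 and a median of -0.38.

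The supporting cell list had 10 of 11 tested genes below 0, 5 of them without overlap (28.7% of all genes tested), and a median of -0.32. Its summed level was 5110 and 5375 CPM in wild-type against 2931 and 4940 CPM in cello, and the low sum of cello replicate 1 was carried by the tectorin genes Tecta and Tectb, which encode proteins of the tectorial membrane. Tectb measured 2474 and 2594 CPM in the wild-type libraries, against 748 and 2633 CPM in the cello libraries. Without these 2 genes, singled out after their values were seen, the other 10 summed to 2521 and 2654 CPM in wild-type against 2149 and 2055 CPM in cello. Cello replicate 1 did not stand apart in this sum, of which Gjb2 is the largest part. Single genes differed. Sox2 measured 35.2 and 35.0 CPM in the wild-type libraries, against 17.9 and 36.5 CPM in the cello libraries. Jag1 and Lfng were also lowest in cello replicate 1. Gjb2, Gjb6, Otog, Fgfr3, Slc1a3 and, at few reads, Hes5 were lowest in cello replicate 2, and Prox1 in wild-type replicate 1. Genes of this list other than Otog, Lfng and Fgfr3 were named after their values were seen.

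Neuronal and Schwann cell genes lay on the other side of 0 from the stereocilia genes. The Schwann cell list had 9 of 10 genes above 0, all 9 without overlap (16.9% of all genes tested), and a median of 1.18, with a summed level of 1117.5 and 2705 CPM in wild-type against 3952 and 4798 CPM in cello. The spiral ganglion neuron list had 9 of 12 above 0, 6 without overlap, and a median of 1.17, with 215 and 615 CPM in wild-type against 768 and 916 CPM in cello. Both sums were higher in both cello libraries than in both wild-type libraries, and wild-type replicate 1 was the lowest. The part of these differences in tissue make-up in the values of the stereocilia genes was not tested.

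**Figure D4:**
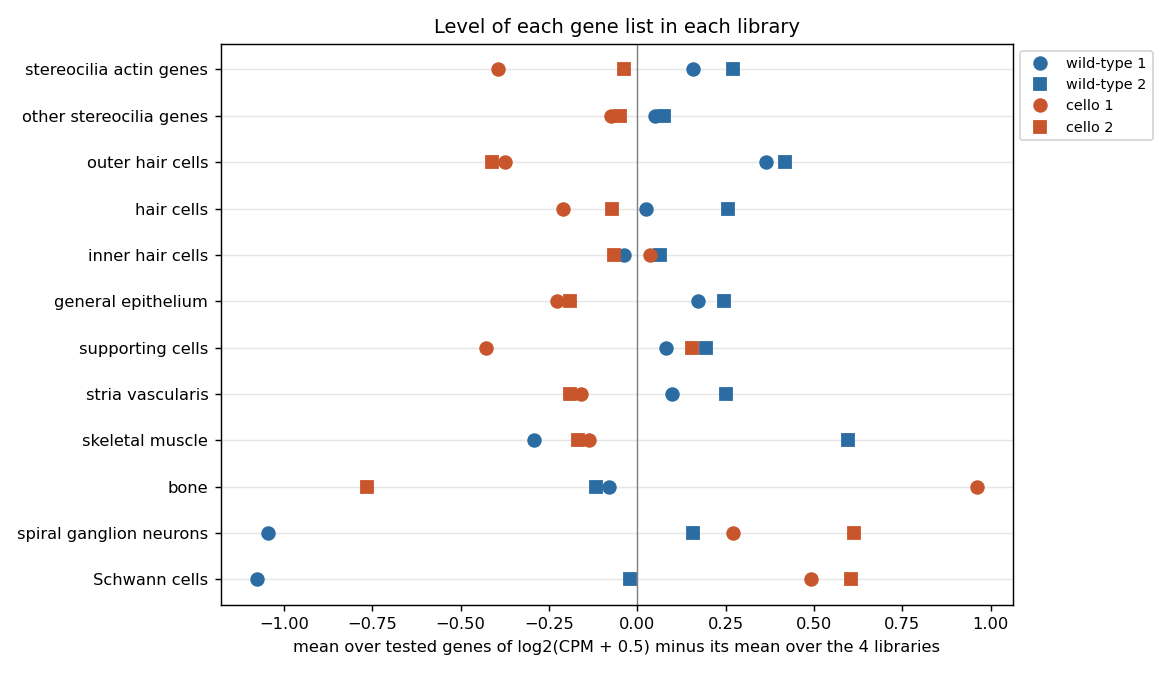
Level of each gene list in each library (horizontal axis: mean over the tested genes of log2(CPM + 0.5) after subtracting each gene's mean over the 4 libraries), wild-type in blue and cello in orange, circles for replicate 1 and squares for replicate 2. The 10 stereocilia actin genes lie at 0.16 and 0.27 in wild-type, against -0.39 and -0.038 in cello, and bone genes at 0.96 and -0.76 in the 2 cello libraries.

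Among 13803 other protein-coding genes tested, those nearest to the median profile of the 10 genes over the 4 libraries were Mcoln3, which encodes an ion channel of hair cells and strial cells, AU041133, and Bsnd, which encodes barttin, a chloride channel subunit. Their Euclidean distances on the centred log2(CPM + 0.5) scale were 0.0493, 0.0549 and 0.0561. Mcoln3 measured 85.5 and 90.1 CPM in the wild-type libraries, against 60.1 and 73.7 CPM in the cello libraries. The nearest of the 10 genes to their own median profile was Pls1, at 0.152, and 163 other genes were nearer than it, so likeness over 4 libraries does not single out these genes.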

How the data were processed

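RNA-seq of 4 whole-cochlea libraries was used. The authors deposited CPM per gene, scaled to all counted alignments, including 5 rows that name no gene (27.2% to 30.0% of alignments) and were left out here. Alignment was by TopHat on build GRCm38, according to the submitters' processing notes. For the counting, the tool, its use of strand and the annotation version are not stated in the sources used. All values (100%, tolerance 0.001 of a read) were whole multiples of the lowest nonzero one in the same library, so reads were recovered. Of 37239 identifiers, 36588 matched GENCODE M21, which gave positions and exon lengths. Symbols came from a list of gene names, or from GENCODE M21 where that list held none. A count of 0 allows up to 3 reads, or 0.0603 to 0.0712 CPM, for counting error only.

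For genes that reached 1 CPM in 2 or more libraries, log2(CPM + 0.5) was fitted by genotype with a mean-variance trend (limma 3.58.1, R 4.3.3). Tests were two-sided, and Benjamini-Hochberg adjusted p over all genes tested were held to 0.05. With 2 libraries a group, the lowest p of an exact permutation test is 0.333, so none was used. edgeR 4.0.16 and DESeq2 1.42.0 on the recovered reads were alternatives. All 3 were tested on simulated data with 100 genes changed 2-fold and 100 changed 4-fold. Limma recovered 53 and 95 of these, and 21 of its 169 calls were false. For edgeR these were 54 and 95, with 19 of 168 calls false. For DESeq2 they were 66 and 95, with 44 of 205 calls false. The simulation drew each gene independently and held no shift in tissue make-up, so these shares need not hold for the real libraries. Errors of CPM are SDs over 2 libraries. Poisson intervals are exact, at 95%. Python 3.11.15, pandas 2.3.3 and matplotlib 3.10.9 made the tables and plots.

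The 10 genes, the gene lists and the tests were chosen with earlier results of these data known. Named were all 10 genes, up to 4 genes per direction of the other stereocilia and paralog lists by smallest unadjusted p, up to 3 per marker list, Ikzf2 and a few fixed hair cell genes, and the 3 genes nearest in profile. Others are said to have been named after their values were seen. One gene of the 34 in the other stereocilia list was not analysed here.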

Additional observations from a re-analysis of the deposited data

How the results depend on the processing

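Other pseudocounts (0.1 and 1), testing all genes, testing those with a mean of 5 CPM or more (which left 7 of the 10 stereocilia genes), CPM over reads in genes only, TMM and median-of-ratios rescaling, limma without the variance trend, the replicate block and edgeR each called 0 genes and kept the sign of every stereocilia gene tested, with medians from -0.43 to -0.36. DESeq2 called 195 genes, 1 of them a stereocilia gene (Espnl, -0.73), left 1142 adjusted p undefined, among them that of Grxcr1, and otherwise kept these signs. The labels share replicate numbers without saying that they pair libraries. Differences between replicates 1 and 2 correlated across genes at 0.133 between the genotypes, and with the replicate number as a block 0 genes passed. Leaving out 1 library, where the lone library of a genotype is assumed to vary like the others, gave 0 to 90 genes called, the 90 without wild-type replicate 2 and all of them higher in cello. It gave 0 stereocilia genes called each time, 8 to 10 of them below 0, and a median of -0.61 to -0.22. Grxcr1 ranged from -0.76 to 0.094 and Grxcr2 from -0.19 to 0.070, which includes 0.025 without wild-type replicate 1. The cause was not tested. For the other stereocilia list 21 to 25 of 33 genes lay below 0 over the settings that tested them all. Depth limits Grxcr1, Xirp2 and Fscn2 most, at 43 to 176 reads per library.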
